A study of Mus musculus with 16 samples.

Results

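A set of 9 secreted or cytoplasmic regulators of Wnt signaling was followed through the stroma of mouse lymph nodes (LNs), namely Wif1, Sfrp1, Sfrp2, Sfrp4, Dkk2, Dkk3, Rspo3, Nkd2 and Axin2. These are 9 of the 48440 genes in the deposited tables and were found by their symbols. The set was chosen from the levels of these genes in reticular and lymphatic cells of the same 16 libraries. Differences between cell classes are therefore described here without a test. The comparison of draining with non-draining nodes was not part of that rule and is tested. Earlier results of these data were known when the members were chosen, so the tests may not be independent of that choice. Sex-matched, 8-week-old C57Bl/6 mice received 500000 MC38 cells, a mouse colon carcinoma line, under the skin of the right flank. The cells were injected either live or after fixation with paraformaldehyde. On day 12 the inguinal node on the injected side (draining) and the one on the other side (non-draining) were taken, and each of these 4 groups gave 3 libraries. A further 4 libraries came from nodes of naive mice. All suspensions were enriched for cells carrying PDPN, so the number of cells in a class does not stand for its share of the node. Each inoculum had 3 mice, so both kinds of node came from the same mice, but the labels do not say which libraries share one, nor whether a naive library is 1 mouse. The p-values measure the spread between these libraries.

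Wnt ligands bind Frizzled receptors together with the co-receptors Lrp5 and Lrp6, and the best known branch of the pathway then keeps beta-catenin from being degraded so that it can act with TCF and LEF factors on target genes. Much of its control lies outside the cell, where some secreted proteins capture the ligands, others block the co-receptor, and the R-spondins prolong the life of the receptors at the surface. Stromal cells are among the sources of these secreted factors in many tissues. Inside the cell the pathway switches on its own brakes, among them Axin2, which is widely read as a sign of active signaling.

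The libraries held 7486725 to 48945961 unique molecular identifiers (UMIs), and 50386 of 68741 barcodes were kept as cells. Live draining libraries were the deepest in total, but the median UMI number per kept cell, from 3421 to 5098, had both its lowest and its highest value in other groups. A barcode sequence was kept in more than 1 library in 330 cases, which involved 1.316% of the kept cells. Clustering gave 12782 fibroblastic cells and 11183 lymphatic endothelial cells (LECs), of which 20895 fell into 10 classes named by marker genes. The fibroblastic classes are T zone reticular (TRC-like, 3419 cells), marginal reticular (MRC-like, 2681), medullary reticular (MedRC-like, 3020), perivascular reticular (PRC-like, 807), follicular dendritic (FDC-like, 291) and activated stromal cells (ActSC-like, 955), a cluster led by Dnajb1, Atf3 and heat shock genes. The LEC classes are ceiling (cLEC-like, 4365 cells), floor (fLEC-like, 3600), medullary (MedLEC-like, 681) and cortical LECs (CorLEC-like, 1076). No cluster was named B zone reticular. The marker score of that type came second in the MRC-like clusters led by Hamp2 (0.398, against 0.746 for MRC) and by Megf6 (0.309 against 0.417). It was also second in the TRC-like and in some MedRC-like clusters. B zone reticular cells within these classes were therefore not told apart. A level is given as CPM, the usual scaling of a gene's UMIs to the total UMIs of that class in 1 library, with the mean ± SD over the libraries that hold at least 10 cells of the class. These are 16 libraries, except 15 for PRC-like and 14 for FDC-like cells. The missing libraries were all fixed non-draining, which leaves replicate A alone in that group for FDC-like cells, and replicates A and B for PRC-like cells. CPM shows the share of a class's RNA taken by a gene, so fewer expressing cells and less RNA per cell cannot be told apart in it, and values are compared within a gene only.

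The 9 genes lie on 6 chromosomes of GRCm38. Wif1 is on chromosome 10 at 121033960 to 121100650 (plus strand), and Rspo3 is on the same chromosome at 29452416 to 29535867 (minus strand). Dkk2 at 132085292 to 132180304 and Sfrp2 at 83766321 to 83774316 are both on the plus strand of chromosome 3. Sfrp4 at 19623104 to 19632994 (plus strand) and Nkd2 at 73818534 to 73847631 (minus strand) are both on chromosome 13. Dkk3 is on chromosome 7 at 112116017 to 112159057 (minus strand), Sfrp1 on chromosome 8 at 23411502 to 23449632 (plus strand), and Axin2 on chromosome 11 at 108920349 to 108950783 (plus strand).

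RefSeq sequence upstream of the start site was at hand for 5 of the 9 genes. The 250 bases before the start are shown for Dkk2 (chr3:132085042-132085291, plus strand) and Axin2 (chr11:108920099-108920348, plus strand, both GRCm38.p6), the member with the largest called rise and the member that is itself a target of the pathway. Capitals mark the GC box letters GGGCGG on either strand.
Dkk2: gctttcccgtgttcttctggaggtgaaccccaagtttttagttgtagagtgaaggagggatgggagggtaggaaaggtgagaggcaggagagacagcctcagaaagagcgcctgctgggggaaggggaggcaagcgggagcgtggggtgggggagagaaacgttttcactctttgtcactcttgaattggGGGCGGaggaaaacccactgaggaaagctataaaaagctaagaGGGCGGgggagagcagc
Axin2: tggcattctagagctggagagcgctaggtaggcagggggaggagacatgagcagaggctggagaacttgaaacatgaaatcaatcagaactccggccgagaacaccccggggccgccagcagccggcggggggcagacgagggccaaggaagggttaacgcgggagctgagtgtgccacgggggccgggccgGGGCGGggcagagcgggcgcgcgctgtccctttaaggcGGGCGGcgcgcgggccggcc
Both windows held the GC box at 2 places, the nearest of them 17 bases before the start in Dkk2 and 20 bases in Axin2, and 32.7% of 32851 promoters of the same length held it. None of the 5 windows held, on either strand, the letters bound by TCF and LEF factors, searched as CTTTGAT (in 3.21% of all promoters), CTTTGAA (in 4.46%), CTTTGTA (in 3.2%) and CTTTGTT (in 5.03%), and 14.8% of all promoters held at least 1 of them. This says only that these letters are not in these windows.

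Among the secreted antagonists, Wif1, which binds Wnt ligands directly, was found mainly in a pair of fibroblastic classes. Its level was 125 ± 59.9 CPM (SD, n = 16) in MRC-like cells and 103 ± 75.5 CPM (SD, n = 16) in ActSC-like cells, whose ranges of mean ± SD overlapped. In the next class, FDC-like cells, it was 3.09 ± 4.51 CPM (SD, n = 14), and no UMI of Wif1 was found in PRC-like cells of any of the 15 libraries. By marker score the ActSC-like cluster was next closest to MRCs. Its 3 MRC markers summed to 4592 to 4939 CPM in live draining nodes, against 4876 to 5144 CPM in MRC-like cells. In live non-draining nodes the sums were 5523 to 6256 CPM and 6917 to 7616 CPM. Whether the 2 classes are separate kinds of cell was not tested. After each cell was thinned to 2000 UMIs, 11.3% of MRC-like cells and 8.98% of ActSC-like cells carried a Wif1 UMI. The share was 0.0617% in B cells, 0.319% in T cells and 0.318% in macrophages and monocytes, taken here as a background level whose source was not tested. Before thinning, the median depth was 9649 UMIs in MRC-like cells and 1101, 1238.5 and 2961.5 UMIs in those leukocytes.

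The secreted Frizzled-related proteins, which carry a Frizzled-like domain and bind Wnt ligands, divided the stroma differently. Sfrp4 was the most restricted of them, with 265 ± 117 CPM (SD, n = 15) in PRC-like cells and 5.63 ± 3.09 CPM (SD, n = 16) in MedRC-like cells, the next class. Sfrp2 was highest in PRC-like cells at 255 ± 166 CPM (SD, n = 15) and in TRC-like cells at 195 ± 38.7 CPM (SD, n = 16), and these ranges overlapped. It was lower, at 72.5 ± 23.5 CPM in MedRC-like, 46 ± 24.1 CPM in ActSC-like and 27.6 ± 13.7 CPM in MRC-like cells, and its mean was at most 0.707 CPM in FDC-like cells and the LEC classes. Sfrp1 was spread across both lineages. Its highest level was 128 ± 35.7 CPM (SD, n = 16) in CorLEC-like cells, followed by 99.9 ± 43 CPM (SD, n = 15) in PRC-like cells, 62.8 ± 33.5 CPM in MedLEC-like, 62.6 ± 25.7 CPM in MedRC-like and 55.6 ± 20.7 CPM in TRC-like cells. Each of these 5 classes overlapped with the next one in mean ± SD, and ActSC-like cells at 23 ± 8.22 CPM stood apart from TRC-like cells, the lowest of them, but not from the wider range of MedLEC-like cells. Within LECs, Sfrp1 was high in cortical and medullary cells and low in ceiling (12.6 ± 2.78 CPM) and floor cells (15.2 ± 6.58 CPM). A Sfrp1 UMI was seen in 18.4% of thinned CorLEC-like cells and in 0.185% of B cells.

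Dkk2, a Dickkopf protein that binds Lrp5 and Lrp6, had its highest class mean in ceiling LECs, with 156 ± 48.7 CPM (SD, n = 16) in cLEC-like cells. In all 16 libraries it was higher there than in MedRC-like cells, which came next at 59.6 ± 31.9 CPM. It was at 6.27 ± 5.42 CPM in the neighboring fLEC-like cells and near 0 in MedLEC-like cells (0.143 ± 0.57 CPM). Not every ceiling cluster carried it, since a cLEC-like cluster led by Igfbp5 and Fgl2 held a mean of 0 to 11.4 CPM in the 5 groups, while the other 4 ceiling clusters held means of 90.6 to 293 CPM. In MedRC-like cells the gene was concentrated in a single cluster that it led together with Kcnk3 and Stc1. There it was at 163 ± 52.1 CPM (SD, n = 15), close to the mean of cLEC-like cells. Outside LECs and fibroblastic cells, Dkk2 was at 21.9 ± 19.1 CPM (SD, n = 16) in blood endothelium. Dkk3, a more distant Dickkopf protein that is not known as a strong co-receptor blocker, was highest in PRC-like cells at 115 ± 68.7 CPM (SD, n = 15), and then lay between 27.1 and 36.1 CPM in MRC-like, ActSC-like, TRC-like and MedRC-like cells, whose ranges overlapped. It was at 18.4 ± 5.8 CPM in cLEC-like cells and at means of 0.485 and 0.163 CPM in floor and medullary LECs.

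Rspo3, the R-spondin that strengthens Wnt responses, followed a pattern near that of Wif1 but with wider reach. It was at 153 ± 43.6 CPM (SD, n = 16) in MRC-like cells and 100 ± 25.4 CPM in ActSC-like cells. MedRC-like and FDC-like cells shared a mean of 48.3 CPM (SD 14.6 and 16.2). Among LECs it was highest in CorLEC-like cells at 20.6 ± 10.8 CPM and lowest in fLEC-like cells at 1.59 ± 0.972 CPM. A Rspo3 UMI was present in 18.7% of thinned MRC-like cells, against 0.185% of B cells.

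The intracellular members were also highest in MRC-like cells. Nkd2, which binds Dishevelled and damps the signal, was at 110 ± 19.3 CPM (SD, n = 16) there, at 73.5 ± 18.6 CPM in ActSC-like and at 56 ± 22.1 CPM in FDC-like cells (n = 14). Its mean did not pass 1.17 CPM in any LEC class, below the lowest fibroblastic mean of 8.21 CPM in TRC-like cells. Single libraries overlapped, with a minimum of 2.35 CPM in PRC-like and a maximum of 7.87 CPM in CorLEC-like cells. Axin2, a scaffold of the complex that degrades beta-catenin and a common target gene of the pathway, was at 34.1 ± 7.33 CPM in MRC-like and 32.8 ± 7.9 CPM in ActSC-like cells. Unlike Nkd2 it was also found in fLEC-like (24.3 ± 8.01 CPM) and MedLEC-like cells (13.9 ± 7.07 CPM), but stood at a mean of 2 CPM in both ceiling and cortical LECs. Among the other lineages Axin2 was at 47.5 ± 13.3 CPM (SD, n = 16) in T cells, and pericytes and smooth muscle cells held 36.2 ± 18.5 CPM (SD, n = 14). B cells held 0.919 ± 1.02 CPM, so leukocytes were not alike in Axin2.

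**Figure D1:**
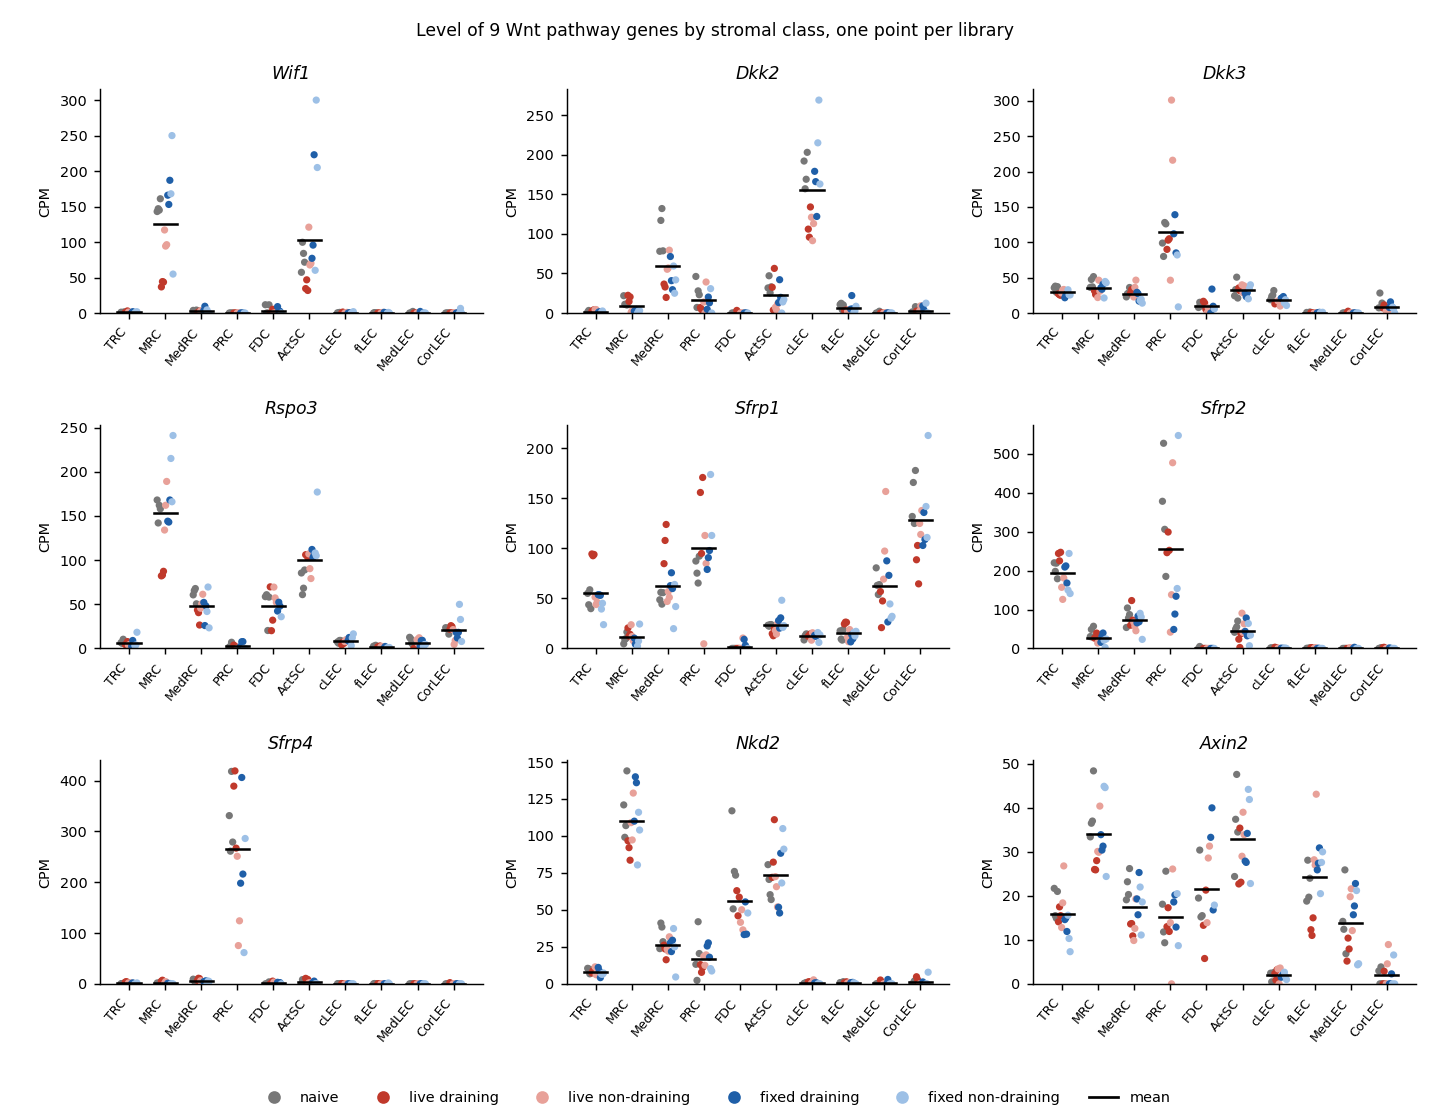
Level in CPM of the 9 genes (panels, each with its own axis) in the 10 stromal classes, with a point per library colored by group and a black line at the mean over libraries. Wif1, Rspo3 and Nkd2 peak in MRC-like cells, Dkk3 and Sfrp4 in PRC-like cells, and Dkk2 in cLEC-like cells, with a mean of 156 CPM.

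Genes of like pattern were those with the highest Pearson correlation of log2(CPM + 1) with a member over 157 class-by-library sums of the 10 classes. These sums share libraries, depth and class membership, so the values are descriptions. Wif1 was most like Cpne4 (r = 0.899), Eif4g3 (0.88) and the RANK ligand gene Tnfsf11 (0.836), which is an MRC marker. Rspo3 was most like Mansc4 (0.825), Kctd12 (0.822) and the B cell chemokine gene Cxcl13 (0.813). Sfrp2 stood beside Olfml1 (0.959), Pth1r (0.95) and Svep1 (0.945), and Sfrp4 beside Mfap5 (0.92) and Igfbp6 (0.911). Nkd2 was most like Slc36a2 (0.924), Rgs17 (0.918) and Scg3 (0.914), Dkk3 most like Bgn (0.873), and Sfrp1 most like Igfbp4 (0.814). The best match of Axin2 was Magi2 (0.814), and that of Dkk2 was Nfat5 (0.707), the lowest best match of the 9 genes. Between members, Wif1 and Rspo3 gave r = 0.732, Dkk3 and Sfrp2 gave 0.727, and Wif1 and Sfrp1 gave -0.255.

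For each inoculum, draining and non-draining nodes were compared with the quasi-likelihood test of edgeR. P-values were adjusted over all genes of a class (Benjamini-Hochberg), and a call is an adjusted p under 0.05. Of the 90 pairs of a member and a class, 51 had enough counts to be tested. These were 9 classes for Sfrp1, 7 each for Dkk2, Rspo3 and Axin2, 6 each for Dkk3 and Nkd2, 5 for Sfrp2, and 2 each for Wif1 and Sfrp4. In mice with live MC38 tumors, 14 of the 51 pairs (27.5%) were called, 7 of them higher and 7 lower in the draining node, and 21 had an unadjusted p under 0.05. Over all genes and classes, 12.8% of pairs were called, 6.62% higher and 6.16% lower. The members were chosen with earlier results of these data known, and their difference from this share was not tested. With fixed cells, 0 of 51 pairs were called by edgeR and 0 of the 27 with an adjusted p by DESeq2, and 10 had an unadjusted p under 0.05 in edgeR and 9 in DESeq2. The background of calls with fixed cells was 0.117% in edgeR, so that a count of 0 is near what the whole table gives. Fixed non-draining libraries also held the fewest MRC-like cells of any group (33 to 55). For FDC-like cells that group was replicate A alone, so its spread was not measured there. Over all genes, the share with an unadjusted p under 0.05 in edgeR differed by class. With fixed cells it was lowest in MRC-like (588 of 11458 genes) and highest in cLEC-like cells (1026 of 11893). With live cells it was lowest in CorLEC-like (1023 of 7813) and highest in fLEC-like cells (5243 of 11785). The unadjusted counts of the members were not tested against these. In 4 pairs, an interaction test found a different draining effect for live than for fixed cells (7.84%), against 5.38% of all pairs. The live calls were in MRC-like (4), ActSC-like (3), TRC-like, MedRC-like and fLEC-like (2 each) and MedLEC-like cells (1), and none was in PRC-like, FDC-like, cLEC-like or CorLEC-like cells. Over all genes, live calls were 2018 of 11458 in MRC-like, 1190 of 9485 in ActSC-like and 860 of 12091 in TRC-like cells. They were 768 of 11320 in MedRC-like, 4196 of 11785 in fLEC-like and 232 of 7811 in MedLEC-like cells. In the classes without a member call they were, in the same order, 299 of 7857, 60 of 6928, 2829 of 11893 and 136 of 7813. The spread of the members over classes was not tested against these.

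**Figure D2:**
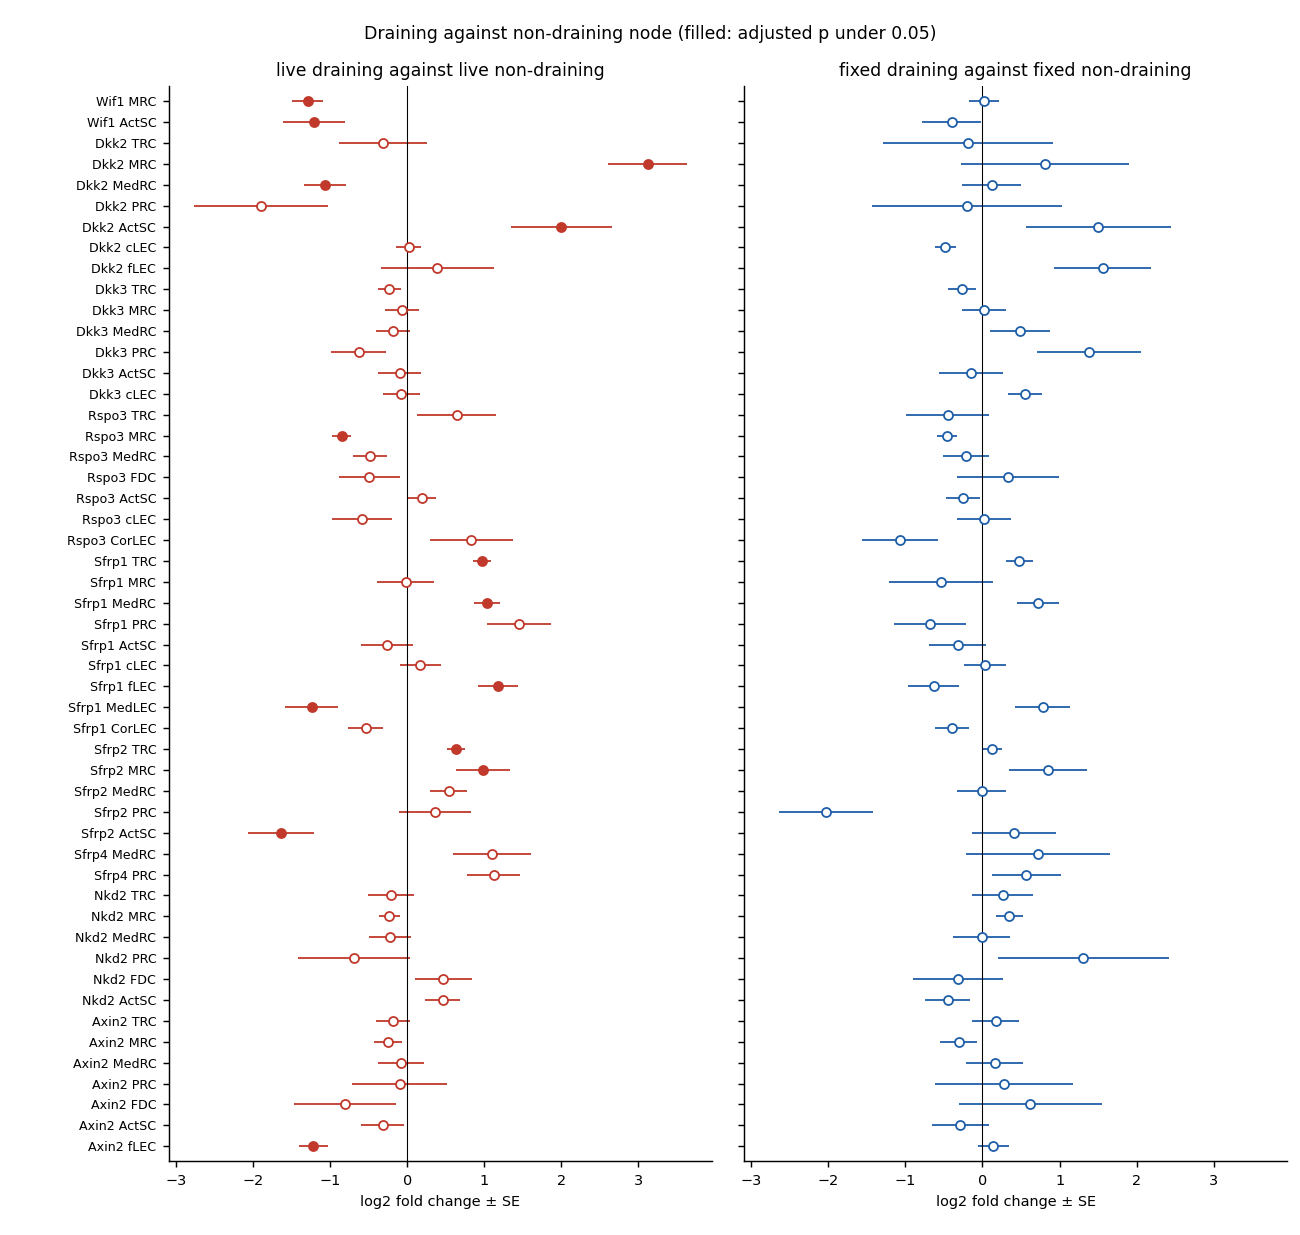
Log2 fold change ± SE of draining against non-draining nodes (x axis) for the 51 tested pairs of gene and class (y axis), with live cells on the left and fixed cells on the right. Filled points are called at an adjusted p under 0.05, which holds for 14 pairs with live cells and for none with fixed cells.

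In MRC-like cells the antagonist Wif1 and the agonist Rspo3 both fell in nodes draining live tumors. Wif1 was at 36.8, 44.3 and 43.6 CPM in the live draining libraries (A to C) and at 117, 94.3 and 96.3 CPM in the live non-draining ones. It ran from 143 to 161 CPM in naive nodes and from 153 to 187 CPM in fixed draining nodes, so the 3 live draining libraries were below every library of those groups and of the live non-draining group. Fixed non-draining nodes were less even, at 168, 250 and 54.9 CPM, the last resting on 18 UMIs. The log2 fold change was -1.29 with live cells (SE 0.20, edgeR adjusted p = 1.48e-05), a level 2.44-fold lower in the draining node, and 0.02 with fixed cells (SE 0.20, adjusted p = 0.996). The difference between these effects was itself called, at -1.31 (SE 0.27, adjusted p = 0.0032). After thinning, a Wif1 UMI was seen in 5.46% to 6.98% of MRC-like cells of live draining libraries and in 12.5% to 15.7% of those of live non-draining ones. In the same order Rspo3 was at 82.1, 83 and 87.3 CPM in live draining nodes against 134, 162 and 189 CPM in live non-draining nodes. Naive nodes held 142 to 168 CPM, within the live non-draining range, and the live draining libraries lay below both groups. Its log2 fold change was -0.85 (SE 0.12, adjusted p = 2.77e-06). With fixed cells Rspo3 gave -0.46 (SE 0.13), with an unadjusted p of 0.00129 that did not pass over all genes (adjusted p = 0.697), and the difference between the inocula was not called (-0.39, SE 0.17, adjusted p = 0.223). In MRC-like cells as a whole, 17.6% of 11458 genes were called with live cells.

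Dkk2 moved the other way in the same cells, from a low level. It was at 22.4, 14.6 and 20.4 CPM in live draining nodes (118, 84 and 78 UMIs) and at 0.911, 2.99 and 3.85 CPM in live non-draining nodes (1, 2 and 2 UMIs). The log2 fold change of 3.12 (SE 0.51, edgeR adjusted p = 3.25e-05) leans on those few counts. With the counts of each group summed, the ratio was 8.61, with an exact 95% interval of 3.65 to 26.7 that covers counting error only. Naive nodes held 10.1 to 21.9 CPM and overlapped with live draining nodes, while fixed draining nodes held 2.42 to 4.47 CPM and fixed non-draining nodes 0 to 3.05 CPM. The low values were thus those of non-draining nodes and of nodes exposed to fixed cells, and the live draining value was near the naive one. The interaction was not called (2.30, SE 1.58, adjusted p = 0.483). Sfrp2 was at 26.5, 26.9 and 39.5 CPM against 13.7, 16.5 and 19.3 CPM in live non-draining nodes, and it was called as higher (0.98, SE 0.35, adjusted p = 0.0493). That call sits at the threshold and was lost in 6 of the 16 fits that left out 1 library, with adjusted p up to 0.225. Naive nodes held 29 to 57 CPM of Sfrp2, which overlapped with live draining nodes.

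The other MRC members were not called in this class. Nkd2 was at 83.6 to 96.7 CPM in live draining and 97.3 to 129 CPM in live non-draining nodes (log2 fold change -0.23, SE 0.13, adjusted p = 0.24). Axin2 was at 25.9 to 28 CPM against 29.9 to 40.4 CPM (-0.25, SE 0.18, adjusted p = 0.401), and Dkk3 was at 26.2 to 31.3 CPM against 21.9 to 46.4 CPM (-0.07, SE 0.22, adjusted p = 0.881). Beside these results, the summed level of the 6 LEC markers in MRC-like cells was 781 to 1030 CPM in live draining and 1020 to 2234 CPM in live non-draining nodes, and the 7 fibroblastic markers summed to 8900 to 10431 CPM against 4938 to 5428 CPM. Their part in the results was not tested.

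**Figure D3:**
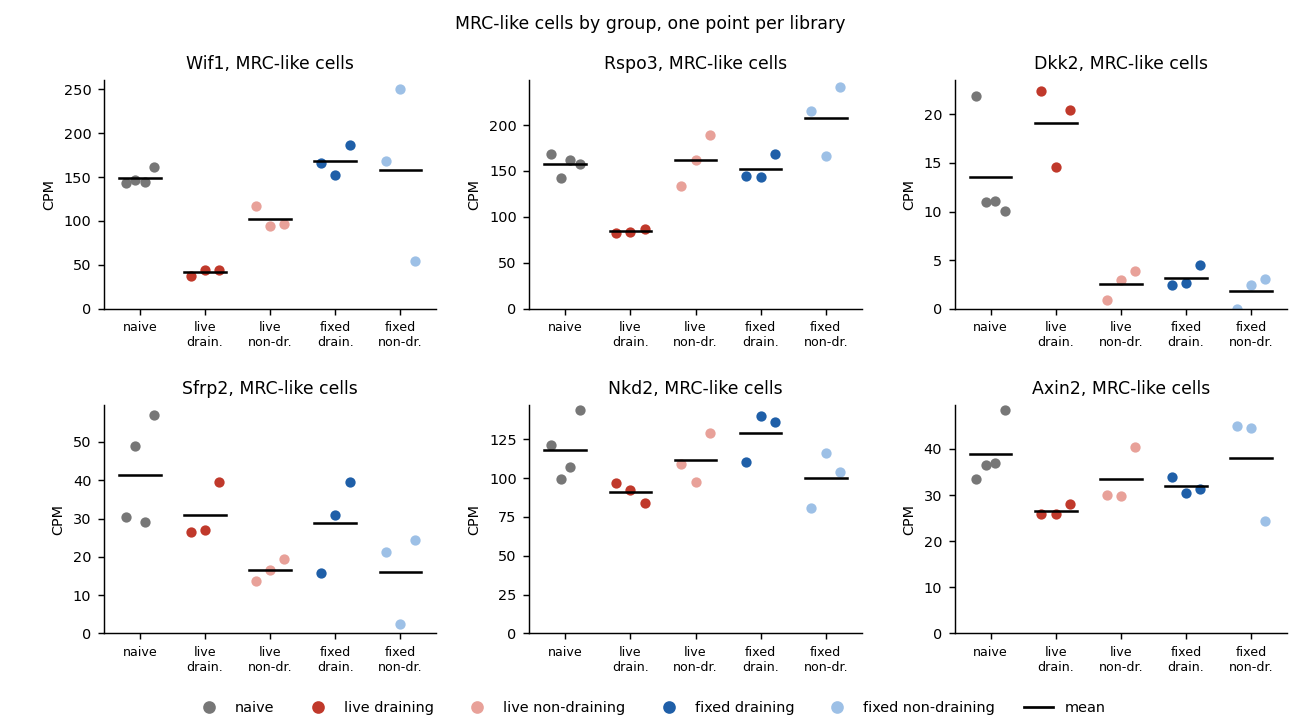
CPM in MRC-like cells of 6 members, with 1 point per library in the 5 groups on the x axis and a black line at the group mean. Wif1 and Rspo3 sit lowest in live draining nodes (36.8 to 44.3 and 82.1 to 87.3 CPM), and Dkk2 is higher there than in live non-draining nodes.

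MRC-like cells fell into 3 clusters, and the members were not even across them. A cluster led by Hamp2, Pla2g7 and Ch25h held 447 cells of live draining and 86 of live non-draining nodes. There Wif1 was at 23.9 ± 6.72 CPM (SD, n = 3) in live draining and 154 ± 32.3 CPM in live non-draining nodes, with 193 ± 24.7 CPM (n = 4) in naive and 214 ± 25 CPM in fixed draining nodes. The fitted change was -2.56 (SE 0.25, edgeR adjusted p = 2.28e-09), larger than in the class, and the difference from the fixed effect was -2.93 (SE 0.34, adjusted p = 2.70e-07). Rspo3 changed by -0.96 (SE 0.15, adjusted p = 2.10e-05), Dkk2 by 3.17 (SE 0.51, adjusted p = 3.92e-05) and Sfrp2 by 1.25 (SE 0.39, adjusted p = 0.0396) in this cluster. Nkd2, which was not called over the whole class, was called here, at 95 ± 8.6 CPM in live draining and 151 ± 40 CPM in live non-draining nodes (-0.64, SE 0.17, adjusted p = 0.0105). Its difference from the fixed effect was called as well (-1.09, SE 0.27, adjusted p = 0.0232). In the other MRC-like clusters Nkd2 gave -0.01 (adjusted p = 0.979) and, with the opposite sign, 0.68 (adjusted p = 0.139). In the cluster led by Hamp, Cxcl13 and Serpina12, Wif1 was at 66.7 ± 16.4 CPM in live draining and 64.8 ± 51.4 CPM in live non-draining nodes, and its fitted change of -0.33, opposite in sign to these means, was not called (adjusted p = 0.505). Rspo3 did fall there, from 137 ± 25.3 CPM to 67.5 ± 5.31 CPM (-0.91, adjusted p = 5.31e-04). In the third cluster, led by Megf6, Wif1 was at 17.1 ± 7.35 CPM against 42.9 ± 38.2 CPM, and Rspo3 changed by -0.21 (adjusted p = 0.757). Whether the change differs between clusters was not tested. Wif1 and Rspo3 were among the 10 leading genes of the first cluster, although no member was used as a variable gene in the clustering.

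**Figure D4:**
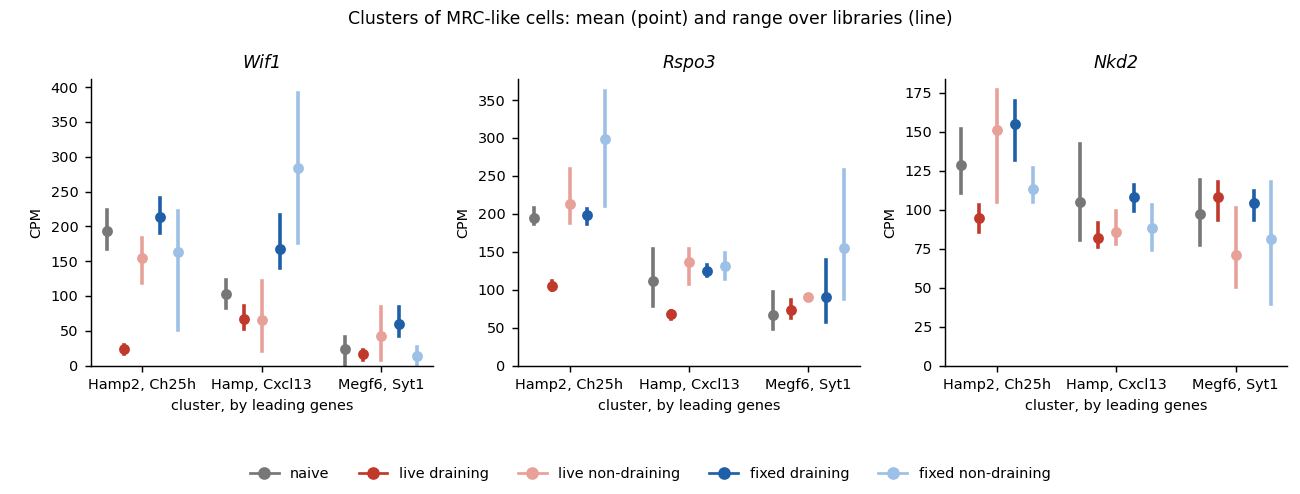
Mean CPM (point) and range over libraries (line) of Wif1, Rspo3 and Nkd2 in the 3 clusters of MRC-like cells, named on the x axis by leading genes and colored by group. In the Hamp2 and Ch25h cluster, Wif1 has a mean of 23.9 CPM in live draining nodes, below the 154 CPM of live non-draining nodes.

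Sfrp1 rose in reticular cells of the T zone and the medulla. In TRC-like cells it was at 94.5, 92.7 and 94 CPM in the live draining libraries (A to C) and at 51.3, 43.9 and 46.2 CPM in live non-draining ones. Naive nodes ran from 39.8 to 58.7 CPM and fixed draining nodes from 53.1 to 53.8 CPM, all below the live draining libraries. The log2 fold change was 0.97 (SE 0.12, edgeR adjusted p = 3.10e-07), or 1.96-fold. With fixed cells it was 0.48 (SE 0.17, unadjusted p = 0.00682, adjusted p = 0.51), and the difference between the inocula was not called (0.49, SE 0.21, adjusted p = 0.29). In MedRC-like cells Sfrp1 was at 84.8, 108 and 124 CPM against 47, 56.9 and 51.1 CPM, a rise of 1.03 (SE 0.17, adjusted p = 4.03e-05). Naive nodes held 44.3 to 56.1 CPM, so the live draining libraries again stood above all of them. The fixed effect in these cells was 0.72 (SE 0.27, adjusted p = 0.499), and the interaction was 0.31 (SE 0.33, adjusted p = 0.767). Within TRC-like cells the rise was called in the cluster led by Ccl21a and Fmod (0.99, adjusted p = 7.75e-06), from 54.6 ± 11.6 to 116 ± 7.68 CPM. Within MedRC-like cells it was called in the cluster led by Inmt (0.81, adjusted p = 0.0155), from 71.8 ± 13.2 to 123 ± 18.7 CPM. In PRC-like cells Sfrp1 was at 156, 95 and 171 CPM against 4.64, 113 and 85 CPM, where the lowest library held 1 UMI of the gene, and the change of 1.45 (SE 0.42) missed the threshold (adjusted p = 0.0503). It passed in 10 other settings, 4 of them fits that left out 1 library, with values from 1.22 (LogNormalize clustering) to 4.87 (at least 20 cells, which leaves the 1-UMI library as the only live non-draining one). The interaction of 2.12 (adjusted p = 0.157) passed in 3 settings.

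In LECs the sign of the Sfrp1 change depended on the class. Floor cells rose from 11.3, 6.74 and 18.9 CPM in live non-draining replicates A, B and C to 24.5, 26.3 and 26.1 CPM in live draining ones (1.18, SE 0.26, edgeR adjusted p = 6.33e-04). Naive floor cells held 8.34 to 18.9 CPM and fixed draining ones 6.56 to 13.7 CPM, without overlap with live draining nodes. The difference from the fixed effect was called at 1.81 (SE 0.42, adjusted p = 0.00286). The clusters that make up the class also differed between the groups. Of the 816 cells of the floor cluster led by Cxcl9, Cxcl10 and Ccl20, 741 came from live draining nodes, and Sfrp1 was at 29.6 ± 1.14 CPM (SD, n = 3) in them. In the largest floor cluster, led by Mucl2, it was at 2.34 ± 4.05 CPM in live draining and 9.31 ± 1.46 CPM in live non-draining nodes. The live draining value there rests on at most 96 cells, and its SD is above its mean. Sfrp1 was fitted in no floor cluster on its own, and the part of the cluster make-up in the rise was not tested. In fLEC-like cells the 6 pericyte markers summed to 670 to 697 CPM in live draining and 211 to 327 CPM in live non-draining nodes, the 7 fibroblastic markers to 141 to 234 CPM and 32.6 to 60.1 CPM, and the median depth was 13313 to 14667 and 6342 to 6641 UMIs per cell. The part of these in the result was not tested. Medullary LECs showed the opposite sign, with 56.9, 20.8 and 47.5 CPM against 69.3, 97.4 and 157 CPM (-1.24, SE 0.34, adjusted p = 0.0355). The difference from the fixed effect was -2.02 (SE 0.50, adjusted p = 0.024). The groups did not overlap, but only 8 to 35 UMIs lay behind each value, and the live call was lost in 4 of the 16 fits that left out 1 library: without live draining replicate B (-0.86, adjusted p = 0.28) or C (-1.31, adjusted p = 0.0547), and without live non-draining replicate B (-1.23, adjusted p = 0.0813) or C (-0.95, adjusted p = 0.203). The difference from the fixed effect was lost in 6 of 16, with adjusted p up to 0.126. Cortical LECs, the class with the highest Sfrp1, held 88.7, 103 and 64.6 CPM against 125, 114 and 138 CPM, which did not overlap but did not pass (-0.54, SE 0.23, adjusted p = 0.27).

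Axin2 fell in floor LECs of nodes draining live tumors. It was at 12.3, 11 and 15 CPM in the live draining libraries (A to C) and at 28.2, 27 and 43.1 CPM in live non-draining ones. Naive nodes held 18.8 to 28.1 CPM, fixed draining nodes 25.9 to 30.9 CPM and fixed non-draining nodes 20.5 to 30 CPM, so the 3 live draining libraries were the lowest of all 16. The log2 fold change was -1.22 (SE 0.19, edgeR adjusted p = 9.99e-06), or 2.33-fold lower, against 0.14 (SE 0.20, adjusted p = 0.944) with fixed cells, and the difference was called at -1.36 (SE 0.27, adjusted p = 6.39e-04). In fLEC-like cells 35.6% of 11785 genes were called, so a call there is common. The Cxcl9-led cluster, which supplied most live draining floor cells, held 11.4 ± 1.55 CPM of Axin2 (SD, n = 3). In the Mucl2-led cluster it was at 20.8 ± 13.4 CPM in live draining and 45.2 ± 5.81 CPM in live non-draining nodes, a change of -1.25 that was not called on its own (adjusted p = 0.175). The other 3 floor clusters that could be fitted gave -0.49, -0.92 and -0.79, none called. Axin2 was called in none of its other 6 tested classes, with values from -0.81 in FDC-like to -0.08 in MedRC-like cells.

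**Figure D5:**
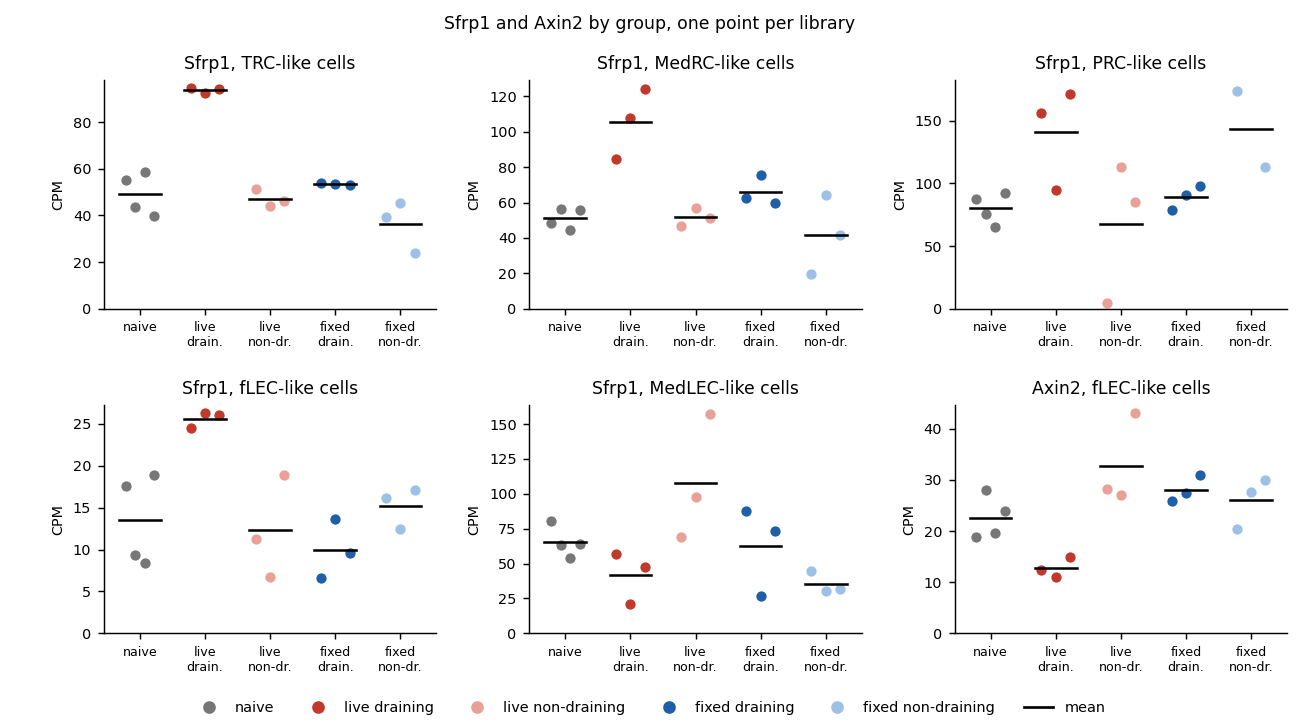
CPM of Sfrp1 in TRC-like, MedRC-like, PRC-like, fLEC-like and MedLEC-like cells and of Axin2 in fLEC-like cells, with 1 point per library in the 5 groups on the x axis and a black line at the group mean. Sfrp1 in TRC-like cells is at 92.7 to 94.5 CPM in live draining nodes, and Axin2 in floor cells is lowest there.

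Sfrp2 in TRC-like cells was at 244, 225 and 247 CPM in live draining and 157, 126 and 181 CPM in live non-draining nodes, a rise of 0.63 (SE 0.12, edgeR adjusted p = 2.86e-04), with 179 to 220 CPM in naive nodes. No single TRC-like cluster gave a call on its own, and the values there were 0.35, -0.12 and 0.84. Dkk2 in MedRC-like cells was at 36.6, 32.9 and 19.7 CPM against 55.3, 56.9 and 79.4 CPM, a fall of 1.07 on the log2 scale (SE 0.27, adjusted p = 0.00926), and naive nodes held 78 to 132 CPM. It was lost without live draining replicate C (-0.87, adjusted p = 0.062) or live non-draining replicate C (-0.91, adjusted p = 0.103). The cluster led by Dkk2, Kcnk3 and Stc1 had 64 cells in live draining, 92 in live non-draining and 434 in naive nodes. Within it Dkk2 was at 144 ± 40.4 CPM in live draining and 178 ± 30.2 CPM in live non-draining nodes, which was not called (-0.29, adjusted p = 0.782).

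In ActSC-like cells Wif1 was at 34.5, 46.8 and 31.8 CPM in live draining and 121, 67.7 and 70.1 CPM in live non-draining nodes (-1.21, SE 0.40, edgeR adjusted p = 0.0456). Sfrp2 was at 23.7, 2.53 and 37.6 CPM against 90.6, 41 and 63.3 CPM (-1.64, SE 0.43, adjusted p = 0.0106). Dkk2 was at 32.5, 3.8 and 56.4 CPM against 7.25, 4.1 and 11.3 CPM (2.00, SE 0.66, adjusted p = 0.0443), and here the groups overlapped. Sfrp2 and Dkk2 were both lowest among the live draining libraries in replicate B. Leaving out 1 library ended the Wif1 and the Dkk2 call in 7 of 16 fits each, and the Sfrp2 call in 2, with adjusted p up to 0.298, 0.225 and 0.114. In these cells the 6 LEC markers summed to 183 to 975 CPM in live draining and 1584 to 9366 CPM in live non-draining nodes, and the 6 macrophage and monocyte markers to 1559 to 2019 CPM and 1112 to 1468 CPM. Ccl21a, which reticular cells also express, is 1 of those LEC markers, and their part in the result was not tested.

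Dkk3, Sfrp4 and Nkd2 were called in no whole class by the edgeR fit with all libraries, with live cells, with fixed cells or in the interaction. Sfrp4 in PRC-like cells was at 389, 419 and 267 CPM in live draining and 251, 75.3 and 124 CPM in live non-draining nodes, without overlap, and did not pass (1.12, SE 0.34, edgeR adjusted p = 0.0742). It did pass without live non-draining replicate A (1.82, adjusted p = 0.0292), in 3 other fits that left out 1 library, with the members kept in the clustering (1.27, adjusted p = 0.0141), with LogNormalize clustering (adjusted p = 0.00276) and without a filter on low counts (1.24). In MedRC-like cells Sfrp4 gave 1.10 (adjusted p = 0.221), and 3.30 (adjusted p = 3.10e-06) with LogNormalize clustering. The 2 lowest live non-draining values of Sfrp4 in PRC-like cells rest on 6 and 19 UMIs. In MedRC-like cells the live non-draining libraries (A to C) held 8, 0 and 4 UMIs of Sfrp4. Dkk3 in PRC-like cells ranged from 46.4 to 301 CPM in live non-draining nodes, which enclosed the 90 to 105 CPM of live draining nodes (-0.63, SE 0.36, adjusted p = 0.427). Without live non-draining replicate A, the lowest of them, Dkk3 was called as lower (-1.25, adjusted p = 0.0223). Nkd2 in ActSC-like cells gave 0.46 (SE 0.23, adjusted p = 0.196). Dkk2 in cLEC-like cells, its main class, was at 106, 95.8 and 134 CPM in live draining and 121, 91.4 and 113 CPM in live non-draining nodes, close to each other (0.02, SE 0.16, adjusted p = 0.958). All 6 of these libraries were below the 157 to 203 CPM of naive nodes. With fixed cells it was at 179, 166 and 122 CPM against 215, 269 and 163 CPM (-0.48, SE 0.14, adjusted p = 0.149). That lower value was called without fixed non-draining replicate C (-0.62, adjusted p = 0.0458) and without a filter on low counts (-0.45, adjusted p = 6.76e-05), as was its difference from the live effect (0.64 and 0.50). Rspo3 in ActSC-like cells was at 103 to 106 CPM against 79.1 to 107 CPM (0.19, SE 0.18, adjusted p = 0.551). The largest fixed effect in size was that of Sfrp2 in PRC-like cells, at 48.8, 88.3 and 134 CPM in fixed draining nodes against 154 and 547 CPM in the 2 non-draining libraries with at least 10 such cells (-2.03, SE 0.61, adjusted p = 0.51).

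The wider pathway was read from 7 gene lists, counted as pairs of a gene and a class in live nodes. Of 28 pairs of Wnt ligands, 4 were called higher and 5 lower (median log2 fold change -0.03, against -0.01 over all genes tested). The share called was 32.1% for these ligands, 24.6% for TCF and LEF factors and targets, 20.8% for other extracellular modulators, 19.7% for receptors, 18.8% for secretion and processing, 10% for the R-spondin list and 5.75% for cytoplasmic transducers, against 12.8% of all pairs, and no difference from that share was tested. Wnt6 was higher in MRC-like (0.59), ActSC-like (1.18) and fLEC-like cells (0.80, edgeR adjusted p = 0.0106), and Wnt11 was lower in fLEC-like (-1.33, adjusted p = 1.93e-06) and MRC-like cells (-0.32) and higher in TRC-like cells (0.57). Of 16 pairs for secretion and processing, 0 were higher and 3 lower, all of them Wls, the carrier that brings Wnt ligands to the surface (-0.42 in MRC-like, -0.44 in cLEC-like and -0.56 in fLEC-like cells). Receptors gave 9 higher and 14 lower of 117 pairs (median -0.07). Fzd10 was lower in MRC-like (-0.94), MedRC-like (-0.94), ActSC-like (-1.27) and fLEC-like cells (-1.56, adjusted p = 2.55e-10), whereas Fzd1 was higher in fLEC-like (1.43), MedLEC-like (1.16), MRC-like (0.58) and MedRC-like cells (0.57). The co-receptor Lrp5 was lower in MRC-like (-0.84) and ActSC-like cells (-0.87) and higher in MedRC-like cells (0.61). Adgra2 was higher in MRC-like (1.57) and MedRC-like cells (0.94) and lower in cLEC-like (-0.35) and fLEC-like cells (-0.59), and Fzd5 was lower in ActSC-like (-1.71) and cLEC-like cells (-1.07).

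Of 20 pairs on the R-spondin list, 0 were higher and 2 lower (median -0.41), with Rspo1 at -1.22 in MRC-like cells (SE 0.19, edgeR adjusted p = 1.73e-05), the same class and direction as Rspo3. Other extracellular modulators gave 3 higher and 2 lower of 24 pairs (median -0.07), and Sostdc1 was lower in MRC-like (-0.86) and ActSC-like cells (adjusted p = 0.0111) but higher in TRC-like (0.29) and MedRC-like cells (0.35). Cytoplasmic transducers gave 1 higher and 4 lower of 87 (median -0.06), with Apc at -0.55 in fLEC-like cells. TCF and LEF factors with common targets gave 8 higher and 7 lower of 61 (median -0.10). Among these targets Ccnd1, which drives entry into the cell cycle, was higher in 5 classes (0.28 in cLEC-like to 1.00 in PRC-like cells), including 0.76 in the fLEC-like cells in which Axin2 fell. Myc was higher in MRC-like (1.00) and lower in fLEC-like cells (-0.75). Tcf7l2 was lower in MRC-like (-0.35), cLEC-like (-0.39) and fLEC-like cells (-0.33). Tcf4 on this list is the bHLH gene of that symbol and no TCF or LEF factor. Its pairs are nevertheless part of the counts, share and median given for the list. Tcf4 was lower in TRC-like and MRC-like cells (-0.43 in each), which are among the 7 lower calls. With fixed cells 0 pairs of any list were called by edgeR, where 0.117% of all pairs were called, so nothing is read from that count.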

How the data were processed

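The authors deposited UMI counts per gene and cell for 16 libraries (10x 3' v3 chemistry), made with Cell Ranger 3.0.1 on mm10 per the submitters' processing notes. The counts were not normalized. The 9 members and all gene lists were chosen with earlier results of these data known. Cells with 200 to 6000 genes and at most 30% mitochondrial UMIs were kept. They were clustered in Seurat 5.3.0 (sctransform 0.4.2, 20 components, resolution 0.8), leaving 88 member and pathway genes out of the variable genes, and clusters were named from marker lists. The lineage rule, the rule for MedLEC-like clusters (Marco in at least 0.5 of the cells) and the rule on conflicting leading genes were settled after the clusters were seen. The automatic doublet threshold marked 44 cells and had not worked. A ranked threshold marked 2108 (4.184%), which were left out only as an alternative.

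For each class, the UMIs of a library were added up if it held at least 10 such cells, and the sums were tested with edgeR 4.0.16 (TMM, filterByExpr, quasi-likelihood, Benjamini-Hochberg over all genes of the class) on all 5 groups in 1 fit. The test was checked on simulated data. DESeq2 1.42.0 was an alternative, among others on normalization, filters, clustering and samples. Shares of cells used 2000 UMIs drawn per cell. Intervals and UMI counts cover counting error only. All 9 members are named, with the pathway genes called in at least 2 classes or of smallest p on their list. Replicate letters were not used to pair the samples. Same-letter correlations of deviations ran from -0.068 to 0.048, but with so few libraries per group they cannot tell whether a letter marks a mouse.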

Additional observations from a re-analysis of the deposited data

Results flagged for a closer look

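In naive nodes, 1 library stood apart from the other 3 in 3 of 51 member-by-class groups examined, and chance gives about 1 in 20. Dkk2 in MRC-like cells was at 21.9 CPM in naive replicate A against 10.1 to 11.1 CPM in the others. The library code ends in 09 for naive replicate A and in 06 for replicates B to D, which the labels do not explain. Rspo3 in FDC-like cells was at 20.3 CPM in naive replicate C against 58.1 to 60.8 CPM. Rspo3 in CorLEC-like cells was at 16.2 CPM in naive replicate D against 22.3 to 23.5 CPM.

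In 4 pairs, edgeR's interaction test separated the effect of live cells from that of fixed cells. The difference was -1.31 for Wif1 in MRC-like cells, -1.36 for Axin2 and 1.81 for Sfrp1 in fLEC-like cells, and -2.02 for Sfrp1 in MedLEC-like cells. The library code ends in 06 or 07 for live libraries and in 09 for fixed ones, except 06 for fixed draining replicate C. A fit with these digits as a term was among the other settings below.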

How the results depend on the processing

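Of the 14 live calls, Wif1, Rspo3 and Dkk2 in MRC-like, Sfrp1 in TRC-like, MedRC-like and fLEC-like, Sfrp2 in TRC-like and Axin2 in fLEC-like cells kept their direction and passed in all 16 fits without 1 library and under the 11 other settings for whole classes. So did the interactions of Wif1 in MRC-like cells and of Axin2 and Sfrp1 in fLEC-like cells. The other calls were each lost in some setting. DESeq2 called 8 live pairs, of 43 with an adjusted p, in place of 14. Leaving out 1 library gave 9 to 16 live calls (9 without live draining replicate C and 9 without live non-draining replicate C), 0 to 1 fixed calls (1, Dkk2 in cLEC-like cells, without fixed non-draining replicate C) and 3 to 5 interactions. Without a filter on low counts there were 3 fixed calls and 11 interactions, and LogNormalize clustering gave 1 fixed call, Dkk2 in fLEC-like cells (1.89, adjusted p = 0.0165). The share of all genes called under each of these settings is not given here, so the counts cannot be placed against it. The causes were not tested. Sfrp1 in MedLEC-like cells changed by -0.70 (adjusted p = 0.406) under LogNormalize clustering.

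With the replicate letter as a block, the counts were 14 live, 0 fixed and 4 interaction calls, again without a share over all genes beside them. Dkk2 in ActSC-like cells was lost (adjusted p = 0.0527) and Sfrp1 in PRC-like cells was gained (adjusted p = 0.0496). Of 54 draining libraries by class, 23 correlated best with their own letter. This does not settle whether the letters mark mice, and they were not taken as pairs in the main fit.

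Single clusters, an alternative chosen after seeing the data, reversed 3 values: the Wif1 interaction in the Hamp and Cxcl13 cluster of MRC-like cells (0.42), live Dkk2 in the cluster led by Inmt of MedRC-like cells (0.57) and live Sfrp2 in the Slc7a11 cluster of TRC-like cells (-0.12), none called. PRC-like and FDC-like cells were few, which limits what could be detected there.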
